A study of Mus musculus with 24 samples.

Results

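Brain endothelial cells of Sox17 knockout pups were compared with those of wild-type pups on postnatal day 5 (P5), in 6 of the 24 libraries of a mouse RNA sequencing series. The 6 libraries were all those labelled P5, 3 per genotype, and the remaining libraries of the series came from embryos (E15.5), older pups (P9) and adults. Knockout pups, called KO here, had the genotype Sox17flox/flox/Cdh5(PAC)-Cre-ERT2+ (sox17iECKO). Wild-type pups, called wt, had the genotype Sox17flox/flox/Cdh5(PAC)-Cre-ERT2-. Floxed Sox17 alleles were thus present in both groups. Pups of both groups were also given tamoxifen, as a single subcutaneous dose of 100 µg on postnatal day 1. Cre-ERT2 was present in KO pups only, so that loss of Sox17 and the presence of an activated Cre recombinase cannot be told apart in this design. Which exons were floxed was not given in the sources used here. Brains were dissociated with a kit for neural tissue, leukocytes were depleted with CD45 beads, and endothelial cells were captured with CD31 beads. Polyadenylated RNA was made into strand-specific libraries for the Ion Proton instrument. The labels describe the 3 libraries of a group as independent biological replicates, without saying whether a library held more than 1 pup, and name no batch.

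Sox17 is a transcription factor of the SoxF group, to which Sox7 and Sox18 also belong. In mouse vessels it is expressed in arterial endothelium and is needed for arterial identity, where it acts together with Notch signalling. In the brain, canonical Wnt signalling directs the formation of the blood-brain barrier by endothelial cells, and the series asked about Sox17 in that setting. Cre-ERT2 is a Cre recombinase fused to a mutated ligand-binding domain of the human estrogen receptor, which tamoxifen brings into the nucleus. Here it was driven by regulatory sequence of Cdh5, the gene of vascular endothelial cadherin, on a PAC transgene.

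The P5 libraries held 14676430 to 18669945 counts, and 20771 to 21344 genes had at least 1 count. Levels are given as CPM, counts scaled to 1e+06 per TMM-scaled library, and a gene with 0 counts may have a level as high as 0.169 to 0.208 CPM (3 counts), by counting error only. Pearson's r of log CPM across genes was 0.985 to 0.989 between libraries of a genotype and 0.982 to 0.986 between genotypes. Genes are called here when the adjusted p is under 0.05 in edgeR's quasi-likelihood test with Benjamini-Hochberg adjustment over all 17159 genes tested. Fold changes are log2 of KO over wt, with their standard error (SE). Of the endothelial markers, all 26 genes of the endothelial identity list were tested, and Pecam1, which encodes CD31, had 1181, 1138 and 1262 CPM in KO libraries 1 to 3 and 1102, 1295 and 1060 CPM in wt libraries 1 to 3.

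Sox17 itself (ENSMUSG00000025902, mm10 chromosome 1, 4490931 to 4497354, minus strand) had 15.15, 19.08 and 15.77 CPM in KO libraries 1 to 3, against 305.8, 227.5 and 298.4 CPM in wt libraries 1 to 3. The KO libraries lay close together and far below all wt libraries, at a mean of 6.01% of the wt mean (log2 -4.06 ± 0.28, SE; adjusted p = 4.7e-09). Reads were summed over the whole gene, so a transcript from a recombined allele would be counted too. The other SoxF genes were not called: Sox7 had 156.1, 156.1 and 156.4 CPM in KO libraries and 129.0, 123.1 and 117.7 CPM in wt libraries (log2 0.34 ± 0.11, adjusted p = 0.31), without overlap between groups. Sox18 differed by 0.30 ± 0.22 log2 (adjusted p = 0.81), also without overlap.

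Among all genes tested, 68 were called higher in KO and 23 lower, 0.396% and 0.134% of the 17159, and 1326 (7.73%) had an unadjusted p under 0.05. In all, 91 genes (0.53%) were called. Leaving aside genes that average under 50 counts in the higher group, the largest rises were those of Rp1, Eda2r, Esr1 and Phlda3, and the rises held many known targets of p53. The largest falls in such genes were those of Sox17 and Gkn3, and the falls held 6 arterial genes. The count of calls depended on the fit: it was 162 with DESeq2, 205 (1.19%) with the P5 libraries alone, 322 without a filter on low counts, and 36 to 82 without 1 library. Of the 91 genes called, 29 were called without any 1 library.

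**Figure D1:**
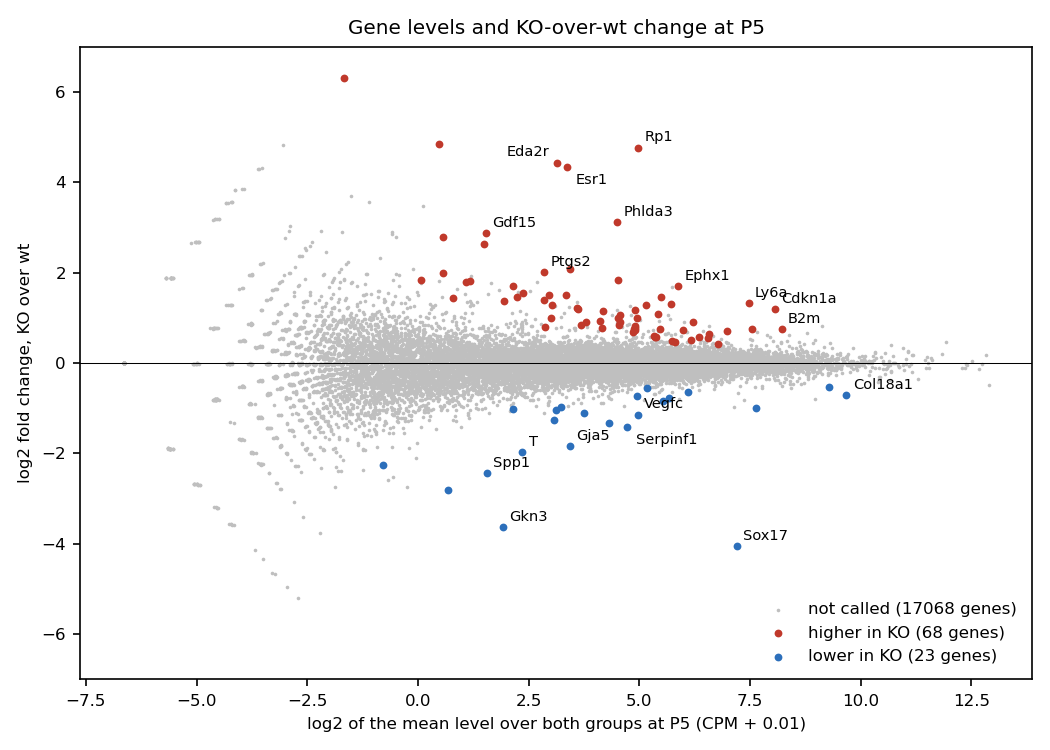
Level (x axis, log2 of the mean CPM over both groups) and KO-over-wt log2 fold change (y axis) of each of the 17159 genes tested at P5. Red points are the 68 genes called higher in KO, blue points the 23 called lower and grey points the genes not called, and Sox17, at -4.06, is the lowest blue point.

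Of the gene lists examined, p53 targets held the most genes that changed. The p53 protein is a transcription factor that is stabilised after DNA damage and other stress, and it induces genes of cell cycle arrest, DNA repair, apoptosis and its own inhibition. All 34 genes of the p53 target list were tested, and 19 of them rose and 0 fell in edgeR. The list had 26 genes with an unadjusted p under 0.05, and DESeq2 called 21 higher and 0 lower and limma-trend 19 higher and 0 lower. The median log2 fold change of the 34 genes was 0.77, beside -0.0025 over all genes tested. All 3 KO libraries lay above all 3 wt libraries for 27 of the 34 genes, beside 7.8% of all genes tested. The list was put together with earlier results of these libraries known, so its counts describe these libraries and are not independent evidence of a direction.

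The largest fold change of the list was that of Eda2r (ENSMUSG00000034457, chromosome X, 97333840 to 97377216, minus strand), a death-domain receptor for ectodysplasin A2. It had 26.24, 10.27 and 14.08 CPM in KO libraries and 0.692, 0.907 and 0.703 CPM in wt libraries (log2 4.44 ± 0.42, adjusted p = 1.0e-06). Phlda3, an inhibitor of Akt, had 59.40, 28.10 and 34.18 CPM in KO libraries and 4.36, 5.02 and 4.53 CPM in wt libraries (log2 3.12 ± 0.29, adjusted p = 7.0e-07). Both genes varied little among wt libraries and more than 2-fold among KO libraries, with KO library 1 the highest.

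Genes of cell cycle arrest and of the control of p53 itself rose less. Cdkn1a (chromosome 17, 29090979 to 29100722, plus strand), which encodes the cyclin-dependent kinase inhibitor p21, had 434.0, 282.1 and 398.5 CPM in KO libraries and 169.7, 172.2 and 143.8 CPM in wt libraries (log2 1.198 ± 0.19, adjusted p = 0.0014). Ccng1, which encodes cyclin G1, had 107.6, 54.1 and 64.0 CPM in KO libraries and 26.4, 37.7 and 27.5 CPM in wt libraries (log2 1.30 ± 0.21, adjusted p = 0.0016). For both genes every KO library exceeded every wt library, and KO library 2 was the lowest of its group. Mdm2, the ubiquitin ligase that degrades p53, had 101.4, 74.5 and 80.2 CPM in KO libraries and 62.0, 54.9 and 61.8 CPM in wt libraries (log2 0.52 ± 0.12, adjusted p = 0.036). Trp53inp1, a nuclear partner of p53, rose by 1.47 ± 0.18 log2 (adjusted p = 7.4e-05) and Zmat3, an RNA-binding zinc finger protein, by 1.08 ± 0.14 (adjusted p = 0.00019). Trp53, the gene of p53, was not called, with 153.5, 171.3 and 189.2 CPM in KO libraries and 161.0, 159.7 and 142.9 CPM in wt libraries (log2 0.15 ± 0.09, adjusted p = 0.74).

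The other called targets have roles in apoptosis, translesion synthesis, metabolism and stress signalling. Bbc3, the BH3-only protein Puma, averaged 22.4 ± 4.2 CPM in KO and 13.0 ± 1.1 CPM in wt (SD, n = 3 each; log2 0.78 ± 0.16). The exonuclease gene Aen rose by 0.76 ± 0.13 log2, the death receptor gene Tnfrsf10b by 0.84 ± 0.18, and Apaf1, the scaffold of the apoptosome, by 0.46 ± 0.10. Ei24, which encodes a membrane protein of the endoplasmic reticulum, rose by 0.42 ± 0.09. Polk, a translesion DNA polymerase, averaged 38.3 ± 7.8 CPM in KO and 21.8 ± 1.1 CPM in wt (SD, n = 3 each; log2 0.82 ± 0.12, adjusted p = 0.0010). Ephx1, the microsomal epoxide hydrolase, had 117.1, 62.5 and 90.7 CPM in KO libraries and 27.0, 30.1 and 25.7 CPM in wt libraries (log2 1.71 ± 0.19, adjusted p = 2.3e-05). Dcxr, a carbonyl reductase, rose by 2.08 ± 0.29 log2, the carboxylesterase gene Ces2e by 1.71 ± 0.32, and Sesn2, a stress-induced inhibitor of mTORC1 signalling, by 1.00 ± 0.18. Gdf15, a secreted stress cytokine, had 5.91, 2.78 and 6.64 CPM in KO libraries and 0.900, 0.242 and 0.958 CPM in wt libraries (log2 2.87 ± 0.59, adjusted p = 0.020). The long noncoding RNA gene Pvt1 rose by 1.79 ± 0.34. KO and wt libraries did not overlap for any gene of this paragraph.

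**Figure D2:**
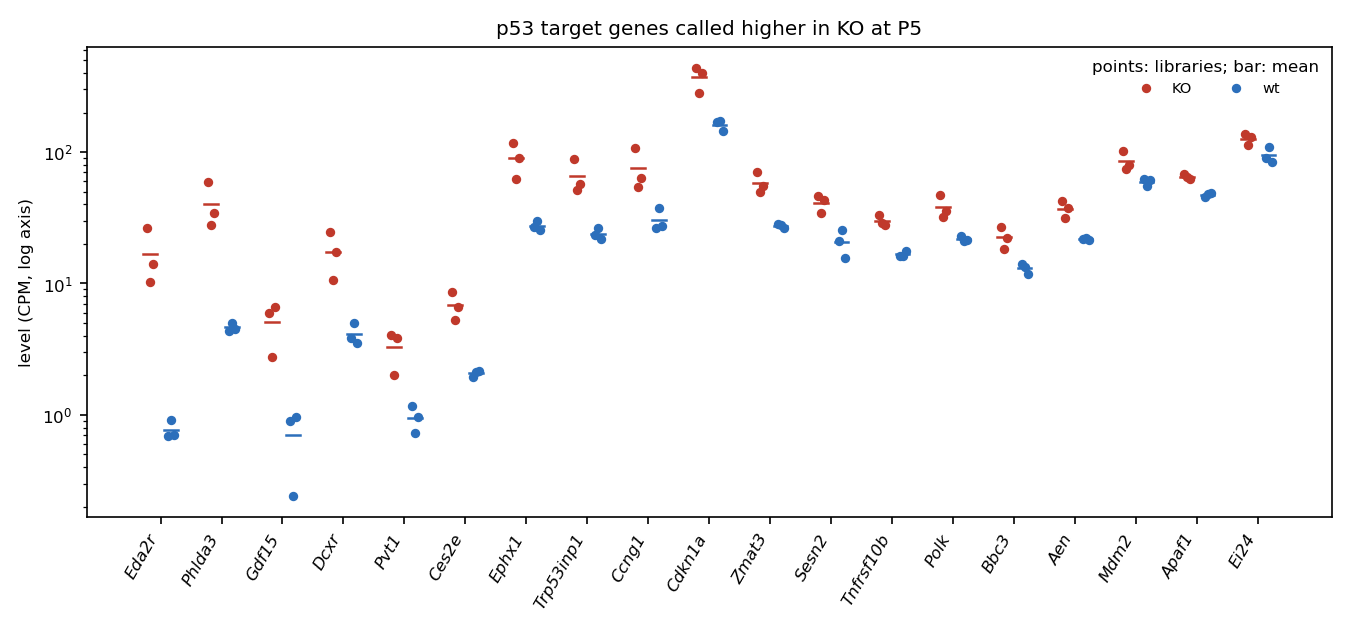
Level (CPM, log axis) of the 19 p53 targets called higher in KO at P5, in each of 3 KO libraries (red, left of each pair) and 3 wt libraries (blue, right), with a bar at the mean of each group. The 2 groups do not overlap for any of the 19 genes, and the KO points spread more than the wt points for Eda2r, Phlda3 and Ephx1.

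KO libraries differed in how far the p53 targets rose. KO library 1 was the highest KO library for 18 of the 19 called targets and KO library 2 the lowest for 17 of the 19. Relative to the KO mean, the medians over the 19 genes were 121%, 77.8% and 96.4% in KO libraries 1 to 3. Among the 49 other genes called higher, KO library 1 was highest for 24 and KO library 2 lowest for 26. Sox17 itself was lowest in KO library 1 and highest in KO library 2, but its levels in KO libraries 1 and 3 were nearly equal. Whether Sox17 levels relate to the order of the p53 targets was not tested. Pericyte markers, at a summed 5533, 4298 and 3490 CPM in KO libraries 1 to 3 and 4526, 5502 and 4212 CPM in wt libraries 1 to 3, were also highest in KO library 1 among the KO libraries, and their part in this order was not tested.

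Of the 15 listed p53 targets that were not called, Xpc and Ddb2, both of nucleotide excision repair, had log2 fold changes below 0, at -0.01 and -0.20. Bax, a pore-forming apoptosis protein, had 82.9, 70.2 and 69.3 CPM in KO libraries and 54.9, 34.4 and 57.4 CPM in wt libraries without overlap, yet its adjusted p was 0.14. Sesn1, a relative of Sesn2, was similar in this respect (log2 0.38 ± 0.10, adjusted p = 0.14). The DNA damage signalling and repair list, which holds the kinases that act upstream of p53, had 0 of 20 genes called in edgeR, DESeq2 and limma-trend and 2 with an unadjusted p under 0.05 in edgeR, at a median of 0.11. Of these 20 genes 17 had a log2 fold change above 0, beside 49.4% of all genes tested. All KO libraries lay above all wt libraries for 6 of them, beside 7.8% of all genes tested. Atm differed by 0.11 log2 (adjusted p = 0.92) and Chek2 by 0.40 (adjusted p = 0.41). Cell cycle genes had 0 of 26 called in edgeR, DESeq2 and limma-trend. In edgeR 7 had an unadjusted p under 0.05, beside 7.73% of all genes tested. The median of the 26 was 0.24, and 23 had a log2 fold change above 0, beside 49.4% of all genes tested. All KO libraries lay above all wt libraries for 10 of the 26, beside 7.8% of all genes tested, and below them for 0. The proliferation marker Mki67 had 223, 244 and 203 CPM in KO libraries and 164, 202 and 193 CPM in wt libraries (log2 0.26 ± 0.16, adjusted p = 0.74).

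Calls of 10 of the 19 p53 targets were made without any 1 library: Eda2r, Phlda3, Dcxr, Ephx1, Trp53inp1, Ccng1, Cdkn1a, Zmat3, Polk and Aen. Whichever of the 6 libraries was left out, Apaf1 (adjusted p 0.083 to 0.24) and Tnfrsf10b (0.071 to 0.22) lost their calls. Mdm2 (0.071 to 0.37), Bbc3 (0.052 to 0.18) and Gdf15 (0.075 to 0.11) did so without KO library 1 or 3 or any 1 of the wt libraries. Ei24 (0.15 to 0.26) was not called when library 1 or 3 of KO or wt was left out, nor Sesn2 (0.051 to 0.088) without KO library 1 or wt library 1 or 3. Pvt1 (0.058 to 0.078) was not called without KO library 1 or 3 or wt library 2 or 3, nor Ces2e (0.069 to 0.082) without library 1 of KO or wt. With scaling to endothelial identity genes the calls of Mdm2 (0.56), Apaf1 (0.56), Ei24 (0.34), Tnfrsf10b (0.12) and Bbc3 (0.082) ended. Ei24 was not called either with the P5 libraries alone (0.084) or, like Apaf1, without a filter on low counts (0.061 and 0.084).

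Promoter windows of Cdkn1a, Ccng1 and Mdm2, genes of arrest and feedback on the list, are shown because a 10-base repeat unit of the p53 response element, the p53 decamer, was found in them. The windows run from 250 bases before to 50 after an annotated gene start in RefSeq (GRCm38.p6) and are read 5′ to 3′ on the gene's strand, with matches of the decamer on either strand in capitals. They lie at chr17:29090729-29091028 (plus strand), chr11:40755237-40755536 (minus strand) and chr10:117710709-117711008 (minus strand).
Cdkn1a: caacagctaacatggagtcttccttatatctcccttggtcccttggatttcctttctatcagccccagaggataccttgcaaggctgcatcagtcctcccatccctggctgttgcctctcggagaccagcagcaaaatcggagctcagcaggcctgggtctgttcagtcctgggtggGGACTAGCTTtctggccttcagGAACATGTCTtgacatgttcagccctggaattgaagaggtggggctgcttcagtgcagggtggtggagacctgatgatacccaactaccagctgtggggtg
Ccng1: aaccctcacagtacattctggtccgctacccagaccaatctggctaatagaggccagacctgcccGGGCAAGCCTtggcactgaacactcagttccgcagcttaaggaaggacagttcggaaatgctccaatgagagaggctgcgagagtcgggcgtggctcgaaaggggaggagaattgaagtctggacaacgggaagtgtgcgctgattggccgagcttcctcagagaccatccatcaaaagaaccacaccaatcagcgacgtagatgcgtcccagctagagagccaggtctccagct
Mdm2: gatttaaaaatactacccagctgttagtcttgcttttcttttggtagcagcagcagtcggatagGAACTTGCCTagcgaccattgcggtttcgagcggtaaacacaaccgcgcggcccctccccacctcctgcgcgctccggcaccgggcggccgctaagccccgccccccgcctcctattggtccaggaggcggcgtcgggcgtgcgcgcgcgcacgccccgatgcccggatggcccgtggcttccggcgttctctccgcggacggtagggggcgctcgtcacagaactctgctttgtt
The Cdkn1a window held 2 matches that do not overlap, and the other windows 1 each. Of the 19 called targets, 15 had a window in the RefSeq table, and 6 of these 15 genes held a match, namely Aen, Ccng1, Cdkn1a, Ei24, Mdm2 and Polk. The decamer was present in 9.55% of the 27025 genes with a window, and in 8.36% of all 32851 windows of this length. Of the whole p53 list, called or not, 8 of 24 genes with a window held it. The share in the called targets thus describes the list and not the change at P5. Of genes called at P5 with a window, 13 of 52 called higher (25%), the 6 targets among them, and 1 of 16 called lower (6.25%) held it. A match is a description of the letters and does not show binding.

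Interferon-inducible genes and genes of antigen presentation by MHC class I were higher in KO libraries, though few single genes passed the test. Interferons are cytokines of antiviral defence that act through Jak kinases and Stat transcription factors, and MHC class I molecules present cytosolic peptides at the cell surface. All 26 genes of the interferon response list had a log2 fold change above 0, at a median of 0.90, and 18 of the 26 had all KO libraries above all wt libraries, beside 7.8% of all genes tested. In edgeR 1 of the 26, Bst2, was called higher and 22 had an unadjusted p under 0.05, while DESeq2 called 7 and limma-trend 0. The MHC class I list had all 17 genes above 0 (median 0.50), with B2m and H2-T23 called higher in edgeR. These lists are related, and both were chosen with earlier results known.

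Bst2 (chromosome 8, 71534264 to 71537437, minus strand), which encodes tetherin, a protein that holds budding virions on the cell, had 86.3, 88.5 and 114.1 CPM in KO libraries and 47.8, 52.6 and 53.8 CPM in wt libraries (log2 0.91 ± 0.20, adjusted p = 0.038). B2m, which encodes the light chain of MHC class I, had 344.6, 386.1 and 390.4 CPM in KO libraries and 190.3, 271.1 and 201.5 CPM in wt libraries (log2 0.76 ± 0.17, adjusted p = 0.036). H2-T23, a nonclassical class I heavy chain gene, rose by 0.74 ± 0.15 log2 (adjusted p = 0.014), with 69.5 CPM in KO library 3 and 45.5 and 50.3 CPM in KO libraries 1 and 2, against 31.2 to 35.0 CPM in wt libraries. Isg15, a ubiquitin-like modifier, was not called, at 25.8, 30.1 and 38.6 CPM in KO libraries and 8.79, 21.0 and 12.1 CPM in wt libraries (log2 1.17 ± 0.32, adjusted p = 0.14). Ifit1, an RNA-binding antiviral protein, had 8.31, 6.80 and 10.9 CPM in KO libraries and 1.87, 4.66 and 1.98 CPM in wt libraries (log2 1.60 ± 0.37, adjusted p = 0.051). For Isg15 and Ifit1 the groups did not overlap, and wt library 2 was the highest wt library. Class I heavy chain genes are close relatives, so reads could be split between H2-T23, H2-T24 and other members of the family.

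Other called genes known as interferon-inducible stood outside the lists and are named after their values were seen. Sp100, a nuclear body protein, had 42.4, 41.2 and 40.1 CPM in KO libraries and 16.7, 24.4 and 13.99 CPM in wt libraries (log2 1.17 ± 0.18, adjusted p = 0.0013). Ly6a, which encodes the surface protein Sca-1, had 212.3, 270.0 and 281.4 CPM in KO libraries and 82.3, 110.3 and 112.7 CPM in wt libraries (log2 1.32 ± 0.21, adjusted p = 0.0014). In both genes every KO library was well above every wt library. The guanylate-binding protein genes Gbp4 and Gbp9 rose by 1.07 ± 0.20 and 0.73 ± 0.16 log2, the GTPase gene Irgm2 by 0.77 ± 0.18, the cytidine deaminase gene Apobec3 by 0.58 ± 0.12 and Mlkl, an effector of necroptosis, by 0.85 ± 0.16.

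KO library 3 was the highest KO library for 34 of the 43 genes of the interferon and MHC class I lists, and KO library 1 for 6. The order of KO libraries thus differed from that of the p53 targets, where KO library 1 was highest for 18 of 19. Summed over the interferon list, levels were 1728, 1831 and 2095 CPM in KO libraries and 1184, 1528 and 1223 CPM in wt libraries. Markers of other leukocytes, of which 8 of 12 were tested, summed to 13.4, 12.7 and 13.0 CPM in KO libraries and 9.97, 12.3 and 10.2 CPM in wt libraries, without overlap. Ptprc, the gene of CD45, had 1.58 to 2.43 CPM in KO and 1.59 to 1.92 CPM in wt libraries, and Cd3e had 0 counts in all P5 libraries. Microglia and macrophage markers summed to 105 to 126 CPM in KO and 99.6 to 148 CPM in wt libraries. The part of leukocytes in the interferon genes was not tested. Bst2 was not called, whichever of the 6 libraries was left out (adjusted p 0.068 to 0.24), nor with limma-trend (0.078). B2m (0.087 to 0.27) and Irgm2 (0.12 to 0.30) lost their calls without any 1 of the KO libraries or wt library 1 or 3. H2-T23 (0.087 to 0.16) lost the call without KO library 3 or wt library 1 or 3, and Gbp4 (0.085 to 0.087) without wt library 1 or 3. Gbp9 (0.069 to 0.22) and Apobec3 (0.059 to 0.14) were not called without any 1 of the KO libraries or wt library 1 or 3, nor Mlkl (0.058 to 0.087) without KO library 3 or wt library 1 or 2. The call of Ly6a ended with limma-trend alone (0.056), and those of Apobec3 (0.10) and Irgm2 (0.086) with scaling to endothelial identity genes. Sp100 was called without any 1 library.

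Promoter windows of Bst2, B2m and Irgm2 are shown because they hold GAAA, 2 bases of any kind and GAAA again, the core of the interferon-stimulated response element, searched on both strands and given in capitals. They were read in the same way from RefSeq (GRCm38.p6) at chr8:71537423-71537722 (minus strand), chr2:122147437-122147736 (plus strand) and chr11:58214727-58215026 (plus strand).
Bst2: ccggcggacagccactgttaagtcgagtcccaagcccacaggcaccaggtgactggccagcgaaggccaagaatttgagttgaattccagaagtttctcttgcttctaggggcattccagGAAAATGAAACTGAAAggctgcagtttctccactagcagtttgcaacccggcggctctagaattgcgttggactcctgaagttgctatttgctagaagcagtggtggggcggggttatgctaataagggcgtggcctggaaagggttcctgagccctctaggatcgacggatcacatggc
B2m: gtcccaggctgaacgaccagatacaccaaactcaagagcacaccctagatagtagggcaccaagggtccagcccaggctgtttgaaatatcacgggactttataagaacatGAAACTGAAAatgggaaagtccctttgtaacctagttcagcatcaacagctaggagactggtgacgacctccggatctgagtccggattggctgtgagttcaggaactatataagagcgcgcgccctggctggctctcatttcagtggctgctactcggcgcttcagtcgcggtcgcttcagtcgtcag
Irgm2: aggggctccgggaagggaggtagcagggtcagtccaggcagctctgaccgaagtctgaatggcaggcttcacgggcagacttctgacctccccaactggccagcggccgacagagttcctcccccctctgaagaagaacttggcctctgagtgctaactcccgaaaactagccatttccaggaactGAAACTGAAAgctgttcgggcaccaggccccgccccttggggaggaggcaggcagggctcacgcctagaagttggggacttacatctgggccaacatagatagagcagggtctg
The Bst2 window held 2 matches that overlap, and the others 1 each. Of the interferon list, 17 genes had a window and 9 of them held the motif, and of the MHC class I list 5 of 15 did. The motif was in 3.99% of the 27025 genes with a window, and in 3.44% of all 32851 windows. Of genes called at P5 with a window, 7 of 52 called higher (13.5%) and 2 of 16 called lower (12.5%) held it. The shares in the 2 lists describe the lists, of which few genes were called, and not the change at P5. A match does not show binding. ACAAT, a core of Sox binding sites, also searched on both strands, was in the windows of 5 of 16 genes called lower, of 1 of 5 called arterial genes and of 34.4% of all genes with a window.

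Arterial genes held most of the listed falls. All 29 genes of the arterial list were tested: 6 were called lower and 0 higher, beside 0.134% and 0.396% of all genes, and 16 had an unadjusted p under 0.05. DESeq2 called 10 lower and limma-trend 5, with 0 higher in either. The median was -0.34, and 15 of the 29 had all KO libraries below all wt libraries, beside 7.23% of all genes tested. In bulk libraries such as these, fewer cells of a type and less RNA per cell cannot be told apart.

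Gkn3 (ENSMUSG00000030048, chromosome 6, 87383268 to 87388935, minus strand), a secreted protein found in arterial endothelium of the mouse brain, had 0.199, 1.04 and 0.450 CPM in KO libraries and 6.99, 6.11 and 7.79 CPM in wt libraries (log2 -3.63 ± 0.42, adjusted p = 2.6e-05). Gja5, which encodes the arterial gap junction protein connexin 40, had 5.38, 4.09 and 4.56 CPM in KO libraries and 17.9, 19.8 and 12.9 CPM in wt libraries (log2 -1.85 ± 0.33, adjusted p = 0.0063). Every KO library was far below every wt library for both genes. Vegfc, a ligand of the receptor Flt4, had 17.5, 19.9 and 20.9 CPM in KO libraries and 40.2, 42.8 and 45.6 CPM in wt libraries (log2 -1.14 ± 0.15, adjusted p = 0.00017). Tmem100, a membrane protein induced by BMP signalling, had 9.10, 13.7 and 11.1 CPM in KO libraries and 26.1, 27.4 and 31.6 CPM in wt libraries (log2 -1.33 ± 0.22, adjusted p = 0.0022). The groups were again apart, and the spread within each was small. Fbln2, an extracellular matrix protein, fell by 0.99 log2 (SE 0.18, adjusted p = 0.0079), with 109.2, 138.3 and 155.1 CPM in KO libraries and 270.3, 274.2 and 257.4 CPM in wt libraries. Alpl, an alkaline phosphatase, fell by 1.27 log2 (SE 0.28, adjusted p = 0.032).

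Arterial genes that did not pass included the elastic fibre gene Fbln5, with 88.2, 92.9 and 107 CPM in KO libraries and 175, 204 and 184 CPM in wt libraries (log2 -0.97 ± 0.23, adjusted p = 0.053), and the semaphorin gene Sema3g (log2 -0.66 ± 0.17, adjusted p = 0.088). Neither overlapped between groups. The Notch ligand Dll4 had 348, 268 and 259 CPM in KO libraries and 329, 302 and 263 CPM in wt libraries (log2 -0.03 ± 0.12, adjusted p = 0.97). The Notch effector Hey1 differed by -0.16 ± 0.21 log2 (adjusted p = 0.89), Efnb2, an arterial ephrin, by -0.08 ± 0.20 (adjusted p = 0.95), and the chemokine receptor gene Cxcr4 by 0.48 ± 0.21 (adjusted p = 0.56), all with overlap. For the Notch pathway list, edgeR and limma-trend called 0 of 25 genes, DESeq2 called Jag2 lower, and 3 had an unadjusted p under 0.05 in edgeR, at a median of -0.11. Venous genes had 0 of 18 called and 6 with an unadjusted p under 0.05 in edgeR (median 0.07), while limma-trend called Sele higher. Capillary genes had 0 of 12 called and 3 with an unadjusted p under 0.05 (median -0.08), with 0 called by limma-trend and Spock2 lower by DESeq2.

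Markers of smooth muscle, the cells that wrap arteries, held 1 called gene. Of 8 tested markers 3 had an unadjusted p under 0.05 and 7 had a log2 fold change below 0 (median -0.43), beside 50.4% of all genes tested, and Myh11, smooth muscle myosin, had 5.18, 6.52 and 7.15 CPM in KO libraries and 11.2, 14.7 and 11.4 CPM in wt libraries (log2 -0.98 ± 0.22, adjusted p = 0.036). The summed level of the markers was 203 to 297 CPM in KO and 261 to 357 CPM in wt libraries, with overlap, and of the defining genes Acta2 differed by -0.61 ± 0.24 log2 (adjusted p = 0.47). The part of arterial smooth muscle in the arterial falls was not tested. Myh11 was not called, whichever of the 6 libraries was left out (adjusted p 0.076 to 0.28), nor with limma-trend (0.081) or scaling to endothelial identity genes (0.12). Fbln2 lost its call without KO library 1 (0.087), and Alpl without library 1 or 3 of KO or wt (0.16 to 0.25), with limma-trend (0.16) and with scaling to endothelial identity genes (0.073). Gkn3, Gja5, Vegfc and Tmem100 were called without any 1 library.

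Falls outside the arterial list concerned genes of varied roles. Serpinf1, the antiangiogenic pigment epithelium-derived factor, had 13.0, 16.9 and 13.4 CPM in KO libraries and 37.6, 37.3 and 40.9 CPM in wt libraries (log2 -1.42 ± 0.22, adjusted p = 0.0014). Col18a1, the basement membrane collagen from which endostatin is cut, had 513.3, 647.5 and 701.7 CPM in KO libraries and 1030, 1118 and 916.3 CPM in wt libraries (log2 -0.72 ± 0.14, adjusted p = 0.016). Cdkn1c, the cyclin-dependent kinase inhibitor p57, had 37.1, 35.8 and 39.9 CPM in KO libraries and 59.0, 71.7 and 63.5 CPM in wt libraries (log2 -0.78 ± 0.14, adjusted p = 0.0049), opposite in direction to its relative Cdkn1a. The KO libraries lay below the wt libraries in each of these genes. T, which encodes the mesodermal transcription factor brachyury, had 1.46, 3.05 and 1.74 CPM in KO libraries and 10.5, 6.35 and 7.73 CPM in wt libraries (log2 -1.97 ± 0.27, adjusted p = 0.00035). Spp1, which encodes osteopontin, had 0.598, 0.833 and 1.24 CPM in KO libraries and 9.14, 3.63 and 2.11 CPM in wt libraries (log2 -2.44 ± 0.53, adjusted p = 0.028), so that wt library 1 alone was several times its group's lowest value.

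Fibrillin 1 (Fbn1), of microfibrils, fell by 0.74 log2 (SE 0.16), the metalloprotease-like gene Adamtsl1 by 1.01 (SE 0.22), the desmosomal gene Dsp by 1.05 (SE 0.23), Egfl8, a secreted protein with EGF domains, by 0.85 (SE 0.20), and the synaptic adhesion gene Lrfn4 by 0.56 (SE 0.12). Prr18, a proline-rich protein gene, fell by 1.11 log2 (SE 0.19, adjusted p = 0.0042). Ddc, aromatic amino acid decarboxylase, had 61.5, 50.9 and 48.0 CPM in KO libraries and 72.3, 94.7 and 84.2 CPM in wt libraries (log2 -0.65 ± 0.14, adjusted p = 0.025). No overlap between groups was seen for these genes. Serpinf1, Cdkn1c, T and Prr18 were called without any 1 library. Whichever of the 6 libraries was left out, Dsp (adjusted p 0.064 to 0.22), Egfl8 (0.072 to 0.26) and Lrfn4 (0.057 to 0.25) were not called. Spp1 (0.071 to 0.33) lost its call without any 1 of the KO libraries or wt library 1, and Adamtsl1 (0.071 to 0.24) without any 1 of the KO libraries or wt library 1 or 3. Col18a1 (0.074 to 0.17) was not called without KO library 1 or wt library 1 or 2, Fbn1 (0.080 to 0.22) without KO library 1 or 2 or wt library 1 or 3, and Ddc (0.12 to 0.18) without library 2 or 3 of KO or wt. With limma-trend the calls of Dsp (0.055) and Egfl8 (0.094) ended, and with scaling to endothelial identity genes those of Dsp (0.086), Egfl8 (0.12), Lrfn4 (0.21), Adamtsl1 (0.11) and Fbn1 (0.073). With DESeq2 size factors Egfl8 was not called (0.051).

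**Figure D3:**
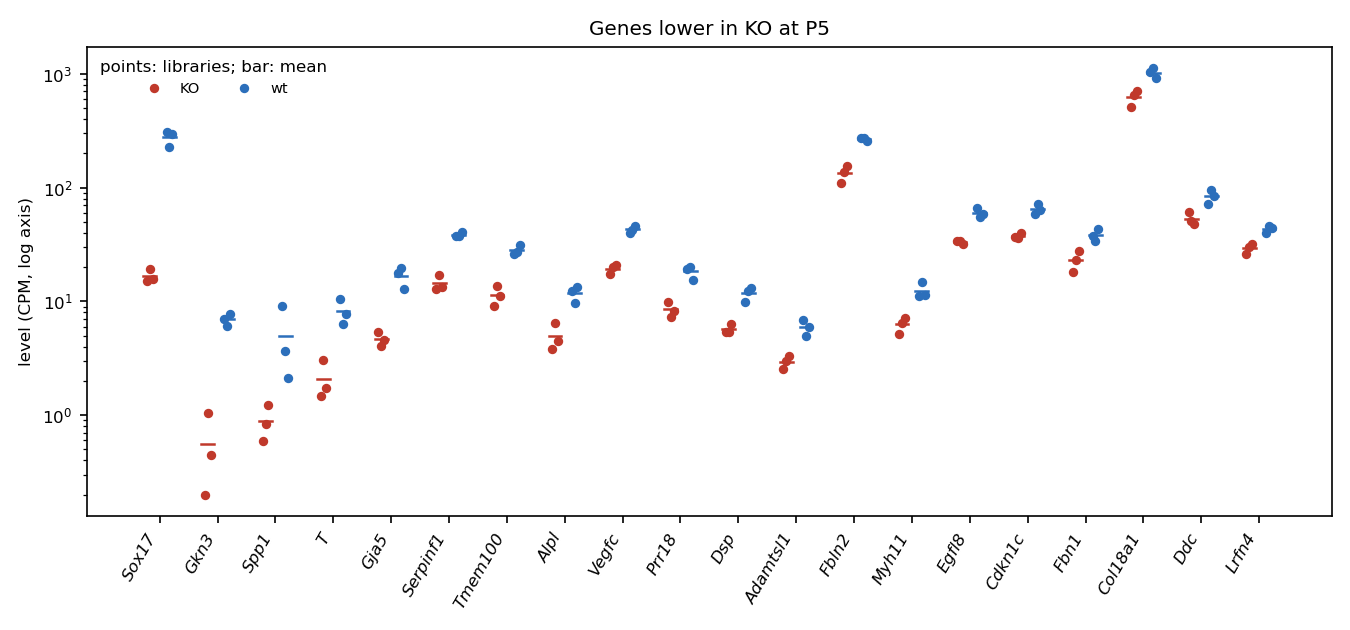
Level (CPM, log axis) of 20 genes called lower in KO at P5, ordered by fold change, in each of 3 KO libraries (red, left of each pair) and 3 wt libraries (blue, right), with a bar at the mean of each group. KO lies below wt in all 20 genes, and the wt points of Spp1 spread from 2.11 to 9.14 CPM.

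Genes of prostaglandin and leukotriene synthesis rose at 3 steps. Pla2g4a, the cytosolic phospholipase A2 that releases arachidonic acid, had 9.77, 12.6 and 12.3 CPM in KO libraries and 3.88, 5.38 and 4.98 CPM in wt libraries (log2 1.28 ± 0.21, adjusted p = 0.0030). Ptgs2, cyclooxygenase 2, which uses it for prostaglandins, had 10.6, 12.6 and 11.6 CPM in KO libraries and 2.77, 2.72 and 3.13 CPM in wt libraries (log2 2.01 ± 0.26, adjusted p = 0.00011). Ltc4s, leukotriene C4 synthase, had 7.31, 6.31 and 6.93 CPM in KO libraries and 3.46, 1.81 and 2.24 CPM in wt libraries (log2 1.46 ± 0.29, adjusted p = 0.015). KO libraries were close to each other and above wt libraries for these 3 of 16 tested eicosanoid genes, and 0 of the 16 were called lower in edgeR, DESeq2 and limma-trend. The median of the list was 0.16. Ptgs1, the constitutive cyclooxygenase, differed by -0.04 log2 (adjusted p = 0.99) and the prostacyclin synthase gene Ptgis by -0.20 (adjusted p = 0.82). Ltc4s lost its call without KO library 1 or 3 or wt library 2 or 3 (adjusted p 0.060 to 0.12) and with scaling to endothelial identity genes (0.058).

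The inflammatory list had 20 of 21 tested genes above 0 (median 0.39), beside 49.4% of all genes tested. All KO libraries lay above all wt libraries for 9 of them, beside 7.8% of all genes tested, and below for 1, beside 7.23%. Beside Ptgs2, the chemokine gene Ccl5 was called, with 2.72, 2.01 and 3.32 CPM in KO libraries and 0, 0 and 0.255 CPM in wt libraries (log2 4.85 ± 0.73, adjusted p = 0.0011). These are 129 counts in KO and 4 in wt libraries, all 4 in wt library 3, so the size of the fold is uncertain: without 1 library the fitted log2 value ran from 4.27 to 8.42, the highest without wt library 3, and the call was made each time. The endothelial adhesion gene Sele had 2.13, 1.80 and 1.97 CPM in KO libraries and 0.0692, 0.363 and 0.0639 CPM in wt libraries without overlap, and was not called in edgeR (adjusted p = 0.094) but was in DESeq2 and limma-trend. Icam1 and Vcam1, adhesion genes for leukocytes, differed by 0.58 and -0.36 log2 (adjusted p = 0.54 and 0.73). The glucocorticoid-induced list had all 14 genes above 0 (median 0.28), and 7 had all KO libraries above all wt libraries. In edgeR 0 were called and 6 had an unadjusted p under 0.05, beside 7.73% of all genes tested. Limma-trend called 0, and DESeq2 called Hif3a higher. The dissociation and stress list had 0 of 17 called in edgeR, DESeq2 and limma-trend and 1 with an unadjusted p under 0.05, at a median of -0.02.

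Of the Wnt and barrier lists, the Wnt target list alone held called genes. The Wnt target list of 24 genes holds Sox17, which is the gene targeted in KO pups, so its fall says nothing about Wnt targets. Of the other genes on it, T was lower. Fgfbp1, a binding protein that mobilises fibroblast growth factors, was higher (log2 0.91 ± 0.20, adjusted p = 0.033). The median of the list was -0.06. Lef1, a nuclear effector and target of the pathway, had 91.3, 101 and 90.9 CPM in KO libraries and 96.4, 98.0 and 77.7 CPM in wt libraries (log2 0.06 ± 0.13, adjusted p = 0.95). Axin2, its negative feedback gene, differed by 0.04 ± 0.15 log2 (adjusted p = 0.97), and both overlapped between groups. Wnt receptors and effectors had 0 of 28 called and 2 with an unadjusted p under 0.05 in edgeR, junction genes 0 of 24 and 2, barrier transporters 0 of 32 and 6, and caveolae and vesicle genes 0 of 15 and 2. DESeq2 and limma-trend called 0 in these 4 lists. The medians were -0.08, 0.00, 0.04 and 0.05. Of all genes tested, 0.53% were called in edgeR and 7.73% had an unadjusted p under 0.05. With so small a share called in all, 0 calls in lists of this size are no result about their members.

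Cldn5, the main claudin of the barrier, had 4629, 5618 and 5621 CPM in KO libraries and 5034, 5443 and 5560 CPM in wt libraries (log2 -0.02 ± 0.13, adjusted p = 0.99). Plvap, a protein of fenestrae that mature barrier vessels lack, had 26.4, 30.7 and 43.6 CPM in KO libraries and 26.4, 26.3 and 32.8 CPM in wt libraries (log2 0.24 ± 0.30, adjusted p = 0.89). The glucose transporter gene Slc2a1 had 1763, 1817 and 2065 CPM in KO libraries and 1396, 1555 and 1312 CPM in wt libraries (log2 0.41 ± 0.12, adjusted p = 0.22). Mfsd2a, a lipid transporter that restrains transcytosis, had 1045, 1135 and 1005 CPM in KO libraries and 1314, 1352 and 1189 CPM in wt libraries (log2 -0.28 ± 0.14, adjusted p = 0.66). For Slc2a1 and Mfsd2a the groups did not overlap, and for Cldn5 and Plvap they did. Misses of this kind do not show that the levels were equal in KO and wt pups.

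Of the endothelial identity list, Clec14a, a C-type lectin of vascular endothelium, was the 1 of 26 genes called (higher), at 227, 229 and 247 CPM in KO libraries and 118, 169 and 128 CPM in wt libraries (log2 0.76 ± 0.15, adjusted p = 0.014). The median of the list was 0.05. Cdh5, whose regulatory sequence drives the Cre transgene, had 1303, 1463 and 1438 CPM in KO libraries and 1161, 1222 and 1141 CPM in wt libraries (log2 0.25 ± 0.10, adjusted p = 0.46), without overlap. Among matrix genes, Timp3, an inhibitor of metalloproteases, was higher (log2 0.55 ± 0.11, adjusted p = 0.020), Col18a1 lower, and the median of the 26 was -0.09. The tip cell list of 24 genes had Vegfc alone called, lower, and the TGF-beta and BMP list of 26 genes Tmem100 alone, lower, in edgeR. Flow-responsive genes had 0 of 16 called in edgeR, DESeq2 and limma-trend with 2 at an unadjusted p under 0.05 (median -0.04). Hypoxia and glycolysis genes had 0 of 20 called and 4 at an unadjusted p under 0.05 in edgeR (median 0.13), 0 in limma-trend and Hif3a higher in DESeq2. Clec14a (adjusted p 0.053 to 0.16), Timp3 (0.053 to 0.21) and Fgfbp1 (0.060 to 0.30) lost their calls without library 1 or 3 of KO or wt. The call of Fgfbp1 ended also with limma-trend (0.065) and with scaling to endothelial identity genes (0.086), and that of Timp3 with this scaling (0.15).

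**Figure D4:**
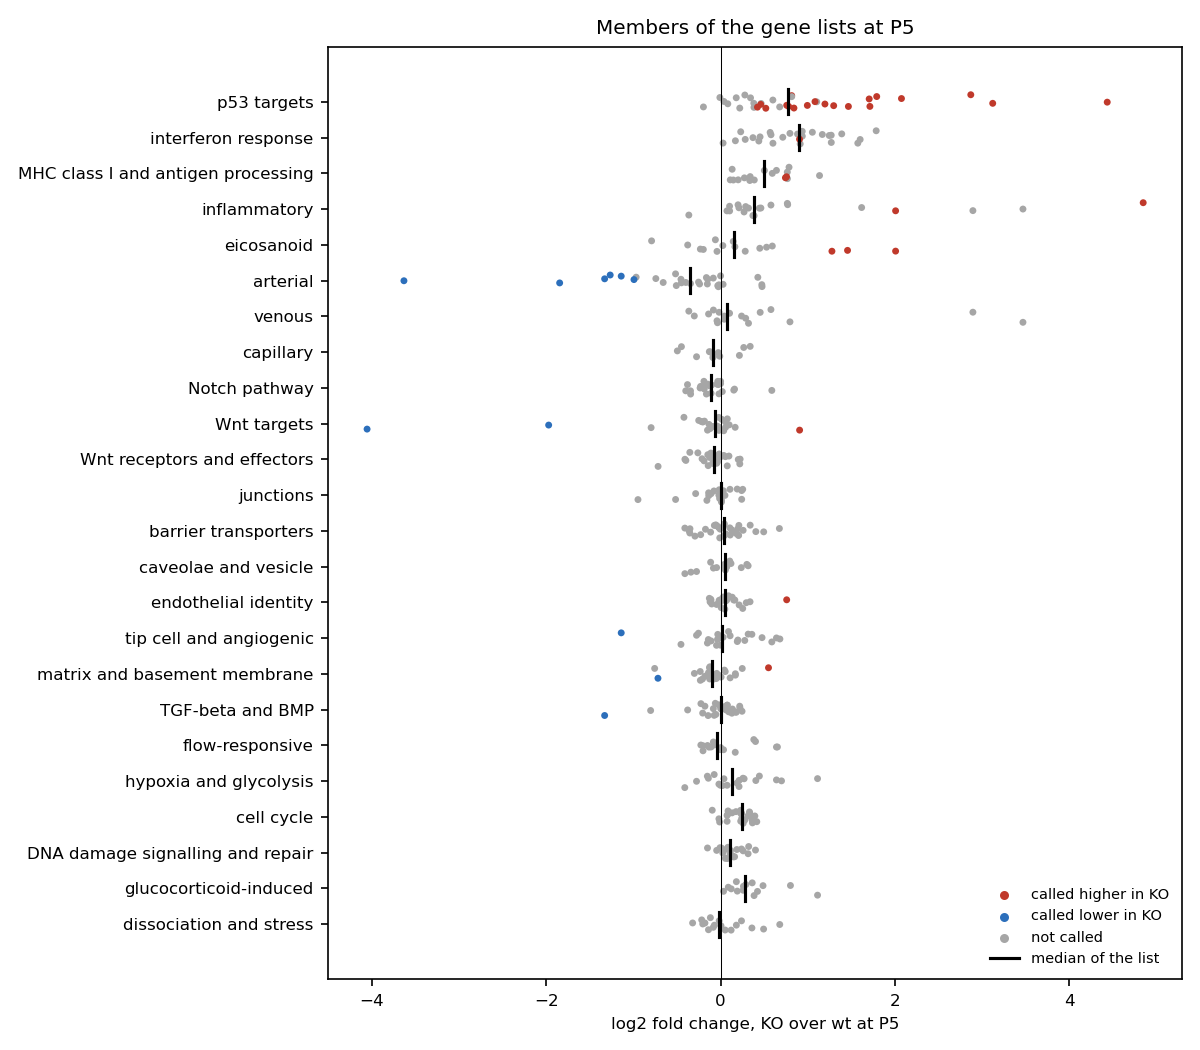
KO-over-wt log2 fold change (x axis) at P5 of each tested member of 24 gene lists (rows), with genes called higher in KO in red, genes called lower in blue, genes not called in grey and the list median as a black bar. The p53 target list holds 19 red points, the arterial list 6 blue points, and the interferon list lies wholly to the right of 0.

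Markers of other brain cells had 0 genes called in edgeR, DESeq2 and limma-trend for red cells, microglia and macrophages, other leukocytes, ependyma and choroid plexus, oligodendrocytes and their precursors, neurons, neural progenitors, pericytes, astrocytes and fibroblasts. At an unadjusted p under 0.05 there were 0 to 2 genes per list in edgeR. Of lymphatic endothelium, 5 markers were tested, 0 called in edgeR and limma-trend, 1 at an unadjusted p under 0.05, and Mmrn1 called higher in DESeq2. Oligodendrocyte precursor markers were below 0 in 10 of 10 (median -0.41), and summed to 615 to 764 CPM in KO and 902 to 1079 CPM in wt libraries. Fibroblast markers were below 0 in 9 of 9 tested (median -0.30), and summed to 606 to 618 CPM in KO and 689 to 747 CPM in wt libraries. Neither sum overlapped between groups. Neuron markers, below 0 in 10 of 10, summed to 237 to 264 CPM in KO and 238 to 387 CPM in wt libraries, with overlap. Their part in the called genes, among them the matrix genes Fbn1 and Fbln2 that fibroblasts also express, was not tested.

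Genes near the targeted and driver loci, and the gene related to the transgene, were examined one by one. Rp1 (ENSMUSG00000025900, chromosome 1, 4290846 to 4409241, minus strand), a microtubule protein gene of photoreceptors next to Sox17, had 55.3, 65.4 and 61.2 CPM in KO libraries and 1.59, 3.45 and 1.53 CPM in wt libraries (log2 4.77 ± 0.23, adjusted p = 6.3e-12). The other genes tested whose lowest coordinate lay within 300 kb of that of Sox17 were not called. Among them was Mrpl15, a mitochondrial ribosomal gene (log2 0.05 ± 0.15, adjusted p = 0.96). Within 300 kb of Cdh5, Bean1, Cmtm3, Tk2, Cklf and Cmtm4 were not called, with log2 fold changes of -0.18 to 0.06 (adjusted p 0.746 to 0.999).

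Esr1 (ENSMUSG00000019768, chromosome 10, 4611593 to 5005614, plus strand), the estrogen receptor alpha gene, had 20.6, 19.7 and 18.7 CPM in KO libraries and 1.11, 1.09 and 0.703 CPM in wt libraries (log2 4.34 ± 0.32, adjusted p = 9.5e-09). The KO libraries were nearly alike. The Cre-ERT2 transgene, which KO pups alone carry, holds related human receptor sequence, and whether its reads were counted under Esr1 was not tested, so the Esr1 value is uncertain.

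The remaining genes among the largest rises had varied roles. Prrg4, a membrane protein with a Gla domain, had 7.57, 2.64 and 4.22 CPM in KO libraries and 0.692, 0.665 and 0.958 CPM in wt libraries (log2 2.63 ± 0.52, adjusted p = 0.014). Zfp365, which encodes a zinc finger protein, had 18.5, 9.16 and 17.7 CPM in KO libraries and 6.58, 5.14 and 4.28 CPM in wt libraries (log2 1.51 ± 0.28, adjusted p = 0.0082). In both genes KO library 2 was the lowest KO library. This held for most p53 targets, and also for 26 of the 49 genes called higher that are not on the p53 list. A link of the 2 genes with p53 was not tested. Mapkapk3, a kinase activated by p38, had 9.37, 6.45 and 7.21 CPM in KO libraries and 2.98, 1.63 and 3.26 CPM in wt libraries (log2 1.55 ± 0.27, adjusted p = 0.0042). Cox6b2, a cytochrome c oxidase subunit gene, rose by 1.50 ± 0.32 log2, Slc26a10, of the anion exchanger family, by 1.40 ± 0.24, and H2-T24 by 1.37 ± 0.26. Mapkapk3 was called without any 1 library. Prrg4 (adjusted p 0.064 to 0.15) and Cox6b2 (0.096 to 0.27) lost their calls without KO library 1 or any 1 of the wt libraries, Zfp365 (0.060 to 0.092) without KO library 1 or 3 or wt library 3, Slc26a10 (0.053 to 0.054) without KO library 3 or wt library 1, and H2-T24 (0.052 to 0.12) without KO library 1 or 3 or wt library 2 or 3.

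How the P5 differences compare with other stages was read from each stage's own KO and wt libraries, and tested as the difference between the KO effects. E15.5 shared the dissociation kit with P5, P9 shared the tamoxifen dose and day, and adults shared neither, so stage, time since tamoxifen, schedule and kit cannot be told apart. Between P5 and E15.5, 6 genes differed in KO effect (0.035% of those tested; 600 or 3.5% at an unadjusted p under 0.05), between P5 and adult also 6 (0.035%; 857 or 4.99%), and between P5 and P9 2695 (15.7%; 5124 or 29.9%). The 6 genes against E15.5 were Eda2r, Phlda3, Tmem100 and the red cell genes Alas2, Hbb-bs and Hbb-bt. These red cell genes were lower in KO at E15.5 (log2 -2.22, -2.24 and -2.32) and were not called at P5. Genes called in either direction numbered 94 at E15.5 (0.548%), 4809 at P9 (28%) and 15 in adults (0.0874%).

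In edgeR more p53 targets were called higher at P5 than at the other stages, with P9 next. The list median was 0.06 at E15.5, 0.77 at P5, 0.39 at P9 and 0.01 in adults, beside 0.01, -0.0025, 0.02 and 0.01 over all genes tested. In edgeR 0 of the 34 were called at E15.5 and in adults, with 8 and 2 at an unadjusted p under 0.05. At P9 14 were called higher and 4 lower, beside 13.5% and 14.6% of all genes tested. DESeq2 called 1 at E15.5, 21 at P9 and 0 in adults, in either direction, and limma-trend 1, 16 and 0, and 22 had an unadjusted p under 0.05 at P9 in edgeR. The KO effect at P5 differed from that at E15.5 for 2 of the 34 genes, at P9 for 17 and in adults for 4. Phlda3 differed from all 3 stages. It averaged 10.03 ± 1.5 CPM in KO and 5.58 ± 0.88 CPM in wt at E15.5, 40.6 ± 16.6 CPM in KO and 4.64 ± 0.34 CPM in wt at P5, 14.2 ± 6.5 CPM in KO and 7.20 ± 0.48 CPM in wt at P9, and 53.6 ± 6.3 CPM in KO and 55.9 ± 6.4 CPM in wt adults (SD, n = 3 each). The P5 effect was larger by 2.28 log2 than at E15.5 (adjusted p = 0.028), by 2.15 than at P9 (adjusted p = 0.00054) and by 3.18 than in adults (adjusted p = 0.00030). In adults the level was high in both genotypes. Cdkn1a was called at P5 and P9 (log2 1.198 and 1.67), and its effects at E15.5 (0.69) and in adults (-0.04) did not differ from that at P5 by this test (adjusted p = 1 and 0.11). Trp53inp1 rose further at P9, by 2.55 log2, than at P5 (difference -1.08, adjusted p = 0.0047), while Ccng1, at 0.07 log2 at P9, rose less (difference 1.23, adjusted p = 0.0055).

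Interferon-related genes followed another course. The interferon list median was 1.67 at E15.5 with 16 called higher, 0.90 at P5 with 1, -0.23 at P9 with 1 higher and 3 lower, and -0.01 in adults with 0 called in edgeR, DESeq2 and limma-trend and 0 at an unadjusted p under 0.05. The difference between P5 and E15.5 was called for 0 of the 26 genes and that between P5 and P9 for 10. Bst2 differed by 1.77 log2 at E15.5, 0.91 at P5, -0.25 at P9 and -0.21 in adults, and its P5 effect exceeded that at P9 by 1.15 (adjusted p = 0.0082). Of the 68 genes higher at P5, 15 were also higher at E15.5, which is 22.1% of the P5 list and 20.8% of the 72 genes higher at E15.5, and they include Bst2, B2m, Gbp4, Gbp9, Irgm2, Sp100 and Ly6a. At P9, Gbp4 and Irgm2 were among 8 of the 68 that were called lower, and 33 were called higher (48.5% of the P5 list and 1.43% of the P9 list). Of all genes tested, 0.42% were called higher at E15.5, 13.5% at P9 and 0.0291% in adults.

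The arterial list had 1 of 29 genes called lower at E15.5, 6 at P5, 12 at P9 and 3 in adults, and 5 called higher at P9, with medians of -0.19, -0.34, -0.20 and -0.23. Of the 23 genes lower at P5, 19 were also lower at P9 (82.6% of the P5 list and 0.761% of the P9 list), 3 at E15.5 (13.0% and 13.6%) and 2 in adults (8.7% and 20%). Of all genes tested, 14.6% were called lower at P9, 0.128% at E15.5 and 0.0583% in adults. Gkn3 fell at P5, P9 and in adults, where it averaged 14.8 ± 4.9 CPM in KO and 44.4 ± 5.8 CPM in wt (SD, n = 3 each). Vegfc fell by 2.23 log2 at P9, further than at P5 (difference 1.09, adjusted p = 0.0012), and Fbln2 by 2.20 log2 (difference 1.21, adjusted p = 0.0024). Tmem100 fell at P5 but at E15.5 had a log2 fold change of 0.54 (adjusted p = 0.89), and the effects differed (difference -1.87, adjusted p = 0.028). Spp1, lower at P5, was higher at P9 by 2.24 log2 (difference -4.69, adjusted p = 6.7e-05). Ptgs2 rose at P5, P9 and in adults, and further at P9 (4.70 log2) than at P5 (difference -2.69, adjusted p = 1.1e-05).

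**Figure D5:**
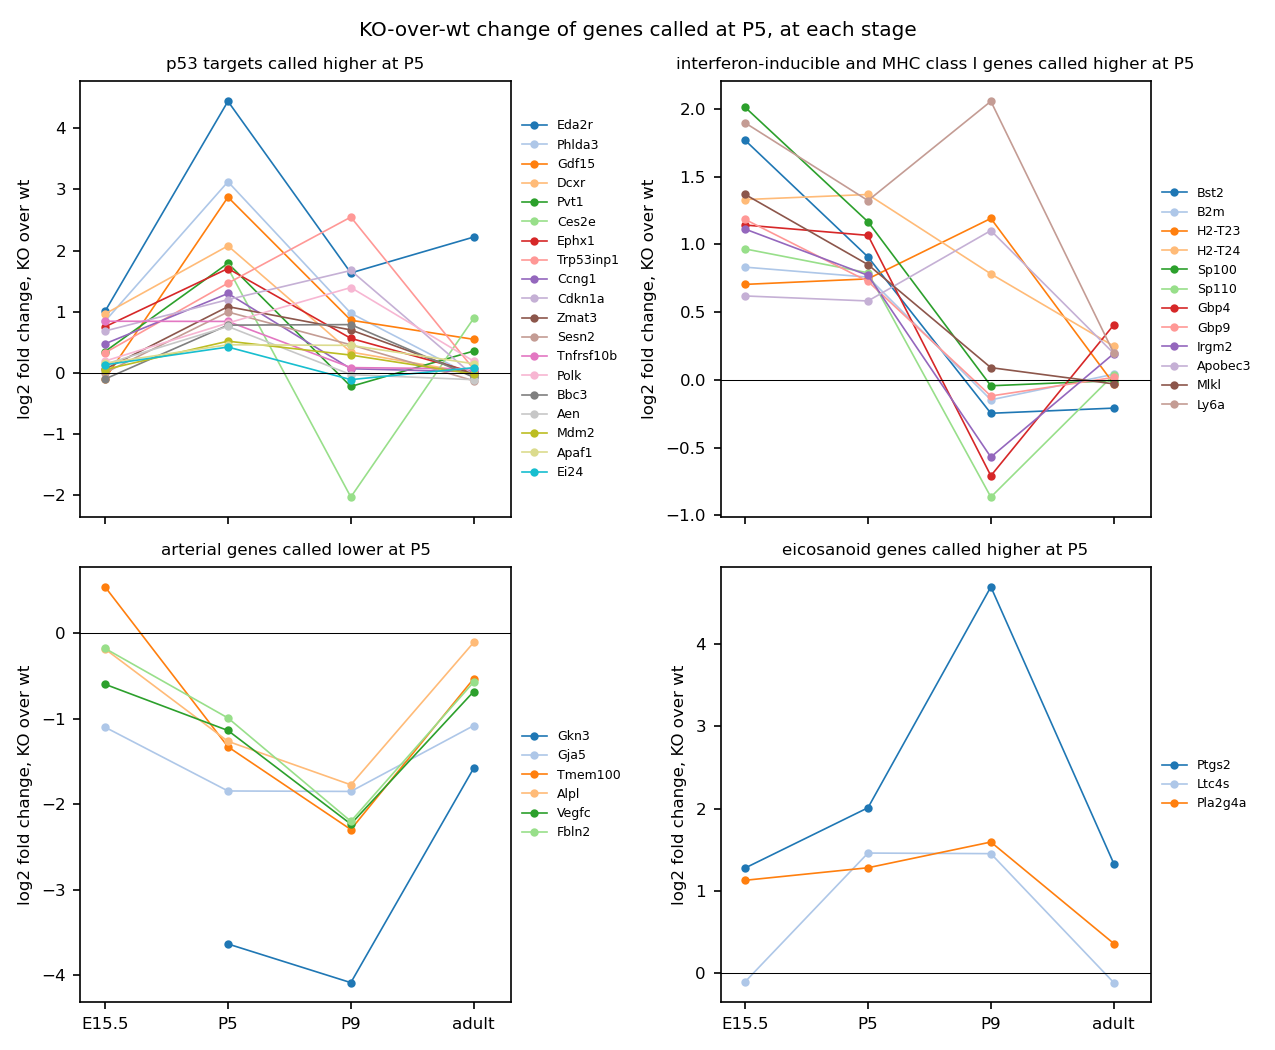
KO-over-wt log2 fold change (y axis) at E15.5, P5, P9 and in adults (x axis), 1 line per gene, for genes called at P5 among p53 targets, interferon-inducible and MHC class I genes, arterial genes and eicosanoid genes. Points where both group means were at or under the level of 3 counts are left out, and Eda2r and Phlda3 peak at P5 while Ptgs2 peaks at P9.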

How the data were processed

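RNA sequencing libraries of CD31-selected brain endothelial cells were used: 3 KO and 3 wt at P5, fitted together with the E15.5, P9 and adult libraries (24 in 8 groups). The deposited files give, per the file headers, read counts per gene together with FPKM and TPM values made by the authors. Whole-number forward-strand counts were analysed as deposited. The deposited FPKM and TPM values were only checked against them: TPM summed to 1e+06 per library. The submitters' processing notes name the build mm10 and, with no roles, STAR 2.5.3a, SAMtools 1.5, FastQC and Trim Galore 0.4.1, and the annotation release is not given in the sources used here.

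The test covered the 17159 of 45468 genes that averaged 10 counts or more in any of the 8 groups. Counts were scaled by TMM (factors 0.907 to 0.987 at P5) and fitted with edgeR 4.0.16 (R 4.3.3) by quasi-likelihood, with 1 coefficient per group, 16 residual degrees of freedom, a prior count of 0.125 and two-sided tests. CPM used the scaled library sizes. Differences between stages were contrasts of KO effects in the same fit. The script was tested on simulated data.

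The alternatives were DESeq2 1.42.0 (size factors, and its test), limma-trend (limma 3.58.1), no filter, scaling to endothelial identity genes, the 6 P5 libraries alone, a replicate block and leaving out each P5 library. The comparison and the gene lists were chosen with earlier results of these data known. Named were Sox17, SoxF, barrier, Wnt, p53 and Notch genes fixed by name, genes within 300 kb of Sox17 or Cdh5, every called list member, and, among called genes whose groups did not overlap, those with the largest fold changes, at most 20 in each direction, with at least 50 counts on average in the higher group and an established symbol. Genes that complete a list's description were named after their values were seen. Distances between genes were taken between their lowest coordinates, whatever the strand. Promoter windows came from RefSeq (GRCm38.p6). A result of DESeq2's test on the venous list is not reported here.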

Additional observations from a re-analysis of the deposited data

Results flagged for a closer look

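The values below are KO effects at P5 minus those at another stage, on the log2 scale. They are for genes named in the report whose effects differed between stages by edgeR's test of the difference (adjusted p under 0.05). Not every such gene is listed. Each stage has its own KO and wt libraries.

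Against P9, p53 targets with a higher value at P5 were Ces2e (3.74), Eda2r (2.8), Phlda3 (2.15), Pvt1 (2.01), Dcxr (1.73), Ccng1 (1.23), Ephx1 (1.14), Aen (0.786) and Ei24 (0.532), and those with a lower value were Trp53inp1 (-1.08) and Polk (-0.579). Trp53 itself differed by 0.529. Of the other genes that rose at P5, the difference from P9 was 2.79 for Prrg4, 1.67 for Cox6b2, 1.27 for Slc26a10, 1.22 for Mapkapk3, 1.22 for Zfp365, 1.15 for Bst2, 0.905 for B2m, -1.39 for Clec14a, -1.4 for Fgfbp1, -2.69 for Ptgs2 and -2.95 for Timp3. For genes that fell at P5 it was 2.16 for T, 1.85 for Col18a1, 1.54 for Egfl8, 1.21 for Fbln2, 1.09 for Vegfc, 0.967 for Tmem100, -1.12 for Ddc and -4.69 for Spp1. Among genes not called at P5, Lef1 (0.611), Cmtm3 (0.558), Dll4 (-0.516) and Slc2a1 (-1.55) differed from P9. So did all 26 genes of the cell cycle list, whose median KO effect was 0.24 at P5 and -1.77 at P9. At P9 all 26 were called lower.

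Against E15.5 the difference was 3.43 for Eda2r, 2.28 for Phlda3 and -1.87 for Tmem100. For the red cell genes, lower in KO at E15.5, it was 1.9 for Alas2, 2.04 for Hbb-bs and 1.96 for Hbb-bt. Against adults it was 3.18 for Phlda3, 1.7 for Ephx1, 1.43 for Slc19a2, 1.41 for Trp53inp1 and 1.11 for Zmat3.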

How the results depend on the processing

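Without a low-count filter 322 genes were called (186 higher, 136 lower; 57.8% higher, beside 74.7%), 88 of them among the 91. DESeq2's test called 162 (109 and 53), the 6 P5 libraries alone 205 (140 and 65), and scaling to endothelial identity genes 59 (43 higher), where the median of all genes shifted by -0.054 log2. Arterial genes called lower numbered 12 without the filter, 10 by DESeq2's test and 11 in the P5 libraries alone. The KO effect differed between P5 and E15.5 for 64 genes without the filter and 18 by DESeq2, between P5 and adults for 121, 30 and, with the scaling, 2, and between P5 and P9 for 1783 with the scaling. Without 1 library the ranges were 36 to 82 called genes (fewest without wt library 1), 24 to 64 higher, 11 to 18 lower, 10 to 17 p53 targets, 3 to 8 genes between P5 and E15.5 and 1 to 14 between P5 and adults. The causes were not tested.

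Same-numbered KO and wt libraries did not deviate together (correlations 0.0912, -0.0157 and 0.0861), and KO library 2 correlated best with wt library 3, so the numbers were not taken to pair the libraries. A replicate block gave 119 calls, 82 of them among the 91 (Apaf1, 0.094, Ei24, 0.10, and Egfl8, 0.054, were among those not called), and 3 between P5 and adults.

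Signs reversed only in genes that were not called. With scaling to endothelial identity genes this held for Axin2 (-0.0266), Bean1 (-0.0267), Cklf (-0.0283) and Tk2 (-0.00685). Without 1 library, log2 fold changes ran from -0.0819 to 0.153 for Axin2, -0.0612 to 0.0823 for Bean1, -0.054 to 0.104 for Cklf, -0.0612 to 0.072 for Cldn5, -0.00905 to 0.145 for Cmtm3, -0.178 to 0.0476 for Dll4, -0.187 to 0.00634 for Efnb2, -2.68 to 1.88 for Gm37323, -0.0725 to 0.701 for Gm37587, -0.416 to 0.217 for Gm7357, -0.522 to 0.00952 for Hey1, -0.042 to 0.12 for Lef1, -0.0311 to 0.161 for Mrpl15, -0.00578 to 0.145 for Pecam1 and -0.00244 to 0.151 for Tk2. Sox17 stayed between -4.18 and -3.98.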

Other observations

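Called genes outside the lists, named after their values were seen, included Slc19a2, a thiamine transporter gene, higher by 1.23 log2 (adjusted p = 0.00056, edgeR) and called without any 1 library. Cd5l, a secreted protein of macrophages, had 30 counts over the KO libraries and 0 over the wt libraries, at least 9.89-fold higher against 3 counts over the group, and lost its call without KO library 3 or any 1 of the wt libraries (adjusted p 0.062 to 0.12).

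Of the 91 called genes, 20 formed 10 pairs whose lowest coordinates, whatever the strand, lay within 300 kb. In 7 of the pairs both genes changed in the same direction. Of the 91 genes 68 were higher, so many pairs of called genes share a direction in any case. Neither the number of pairs nor their shared direction was tested. Between lowest coordinates Pla2g4a and Ptgs2, both higher, lay 270 kb apart, and Prr18 and T, both lower, 94.0 kb apart. Rp1, higher, and Sox17, lower, lay 200 kb apart by the same measure. That distance takes in the length of Rp1, so the 2 genes themselves lie closer. Gbp9 and Gbp4 overlap on the same strand, so their counts are uncertain.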
